A study of Mus musculus with 2 samples.

Results

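The cells described here are cycling epithelial cells with little or no Krt12 in the cornea and limbus of mice labelled Pax6 +/-. Krt12 is a keratin that differentiated corneal epithelium makes in abundance. The study profiled single cells of cornea and limbus from Pax6 +/- mice and from wild-type (wt) mice with droplet sequencing, 1 library per genotype, and its stated subject is the limbal stem cell compartment under reduced Pax6 dose. Its text names 2 mice of each genotype but the labels do not say whether they were pooled, and age, strain, sex and the Pax6 allele are not given. The posterior and inner eye tissues and most of the conjunctiva had been dissected away in both, so some conjunctival epithelium could remain.

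Members were chosen from UMI counts (unique molecular identifiers, 1 per captured transcript). A Pax6 +/- barcode had to hold 500 or more genes and 1000 or more UMIs, of which no more than 20% were mitochondrially encoded. Per 10000 UMIs it needed at least 30 of Krt5, Krt14 and Krt15 together, keratins of basal epithelium, and fewer than 60 of Krt12. It also needed at least 5 raw UMIs of a mitotic sum (Ube2c, Ccnb1, Plk1 and Cenpf) or at least 5 of an S-phase sum (Hist1h1b, Hist1h2ap and Rrm2). The rule found 701 cells among 6316 Krt12-low epithelial cells, 9542 kept cells of the Pax6 +/- library and 19696 kept cells of the series. The other 5615 Krt12-low cells of that library, with both sums below 5, are called resting cells.

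A dividing cell copies its DNA in S phase, when replication enzymes and histones are made, and separates the copies in mitosis, when cyclin B, spindle and kinetochore proteins are made. E2F factors switch on many S-phase genes, and the DREAM and MuvB complexes with B-Myb and FoxM1 control many mitotic genes. The corneal epithelium is renewed from stem cells of the limbus, at the border with the conjunctiva, and Pax6 is a transcription factor that maintains corneal identity. Gpha2, a glycoprotein hormone subunit, is a marker of quiescent limbal stem cells in the mouse, whereas Krt4 and Krt19 are keratins of conjunctival and other mucosal epithelium.

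There was 1 library per genotype and cells of 1 library are not replicates, so no test was possible, and "higher" and "lower" describe these libraries only. Intervals in brackets are exact 95% intervals that cover counting error alone. Because the rule was itself built from counts of these cells, every difference between cycling and resting cells below is a description. The Pax6 +/- library held 131567589 UMIs in 10574 barcodes and the wt library 124540296 UMIs in 11354 barcodes; 40 barcodes occurred in both, none of them a member. In the Pax6 +/- library 46.2% of kept cells had Xist and no Y-linked UMI and 39.4% had Y-linked UMIs and no Xist, against 94.6% and 0 cells in the wt library. The Pax6 +/- library therefore held animals of both sexes, and values are also given within each. The doublet caller Scrublet marked 0.231% of the library, too few to have worked, and 10.6% of members against 4.52% of resting cells lay in the highest 5% of its scores.

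Members were deeper than resting cells, at a median of 20872 UMIs and 5204 genes against 13363 UMIs and 3882 genes. A rule on raw UMIs favours deep cells, so shares of cells are also given after each cell was thinned at random to 5000 UMIs, which left out 15 members and 795 resting cells. The basal keratin sum had a median of 150 per 10000 UMIs in members and 150 in resting cells, and the mitochondrial share was 2.31% and 2.36%. Krt12 was at 0 in 76.9% of members and in 82.6% of resting cells, and 4 members lay at 40 to 60 per 10000 UMIs while 7 other cycling epithelial cells lay just outside, at 60 to 80.

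The members carried the proliferation markers that the rule had not used. Mki67, which coats mitotic chromosomes, stood at 329 CPM (UMIs of the gene per 1000000 UMIs of the group, without mitochondrial genes) in members and at 10.7 CPM in resting cells, a ratio of 30.9 (28.7 to 33.2). Top2a, the topoisomerase that untangles replicated DNA, had 636 CPM against 27.8 CPM, 22.9-fold (21.8 to 23.9). After thinning, Mki67 was found in 66.6% of members, in 3.76% of resting cells and in 4.24% of reference cells, which are vessel, mural, Schwann and immune cells of the same library. Top2a was found in 79.6% of members, 9.05% of resting cells and 3.18% of reference cells. The reference cells had a median of only 6382 UMIs, and 403 of the 1252 were left out of the thinned shares.

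The genes that the rule did use are given for completeness. Rrm2, a subunit of the enzyme that makes deoxynucleotides, stood at 265 CPM in members and 16.2 CPM in resting cells, and Ube2c, the ubiquitin-conjugating enzyme of the anaphase-promoting complex, at 250 and 6.72 CPM. Just inside the limit, 67 cells with a larger sum of 5 had Mki67 in 73.1% and Top2a in 74.6%. Just outside it, 109 cells with a larger sum of 4 had Mki67 in 51.4% and Top2a in 64.2%. The resting group thus held some cells with cycle transcripts. In GRCm38 Mki67 lies on chromosome 7 (135689784 to 135716361, minus strand), Top2a on chromosome 11 (98992943 to 99024189, minus), Rrm2 on chromosome 12 (24708241 to 24714146, plus) and Ube2c on chromosome 2 (164769898 to 164778822, plus).

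**Figure D1:**
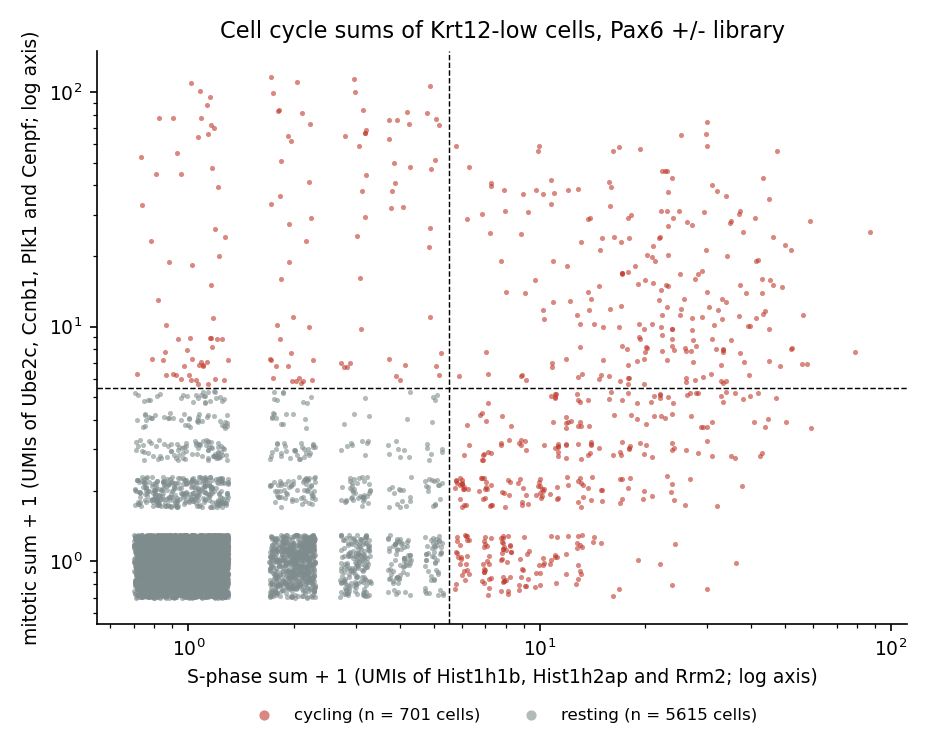
Each point is a Krt12-low epithelial cell of the Pax6 +/- library, with the S-phase sum plus 1 on the x axis and the mitotic sum plus 1 on the y axis, both log axes of UMIs with a small random offset. Dashed lines mark the limit of 5 UMIs: the 701 cycling cells lie to the right of or above it, and the 5615 resting cells lie below both lines.

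The cycling share of Krt12-low cells was 11.1% (10.3 to 11.9) in the Pax6 +/- library. By the same cycle rule it was 14.8% (11.7 to 18.3) of the 480 Pax6 +/- epithelial cells at or above the Krt12 limit. It was 10.5% (9.82 to 11.1) of all 8552 wt epithelial cells and 8.36% (5.58 to 11.9) of the 323 wt cells below the Krt12 limit, which gave 27 cells. Thinned to 5000 UMIs, with sums of at least 3, the share was 8.90% of Pax6 +/- Krt12-low cells, 9.06% of all Pax6 +/- epithelial cells and 10.2% of wt epithelial cells. Within the Pax6 +/- library it was 13.5% (12.3 to 14.7) of Xist cells and 9.36% (8.23 to 10.6) of cells with Y-linked UMIs, which come from different animals. Thinned with sums of at least 5, the share was 5.70% (5.10 to 6.35) of Pax6 +/- Krt12-low cells and 7.50% (6.89 to 8.15) of wt epithelial cells. The share of Pax6 +/- Krt12-low cells therefore lay near that of wt epithelium before thinning and below it after thinning. It differed more between the sexes of the Pax6 +/- library than between that library and wt epithelium. Thinned with sums of at least 3, it was 11.6% of Xist cells and 6.02% of Y-linked cells.

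Mitotic genes showed the widest gap between cycling and resting cells. A gene with 20 or more CPM in either group is called higher or lower here where the group levels lay 2-fold or further apart, by size alone. Of 7224 such genes, cycling cells gave 379 higher calls (5.25%) and 93 lower calls (1.29%), and the median log2 ratio over all of them was 0.03. Of 60 G2/M and mitosis genes outside the rule, 57 reached 20 CPM and all 57 of these were called higher (median log2 ratio 4.32). A gene could reach 20 CPM through the cycling cells alone. Those cells were chosen by cycle transcripts, so this count describes that choice. Hmmr, a spindle-associated protein, had the highest ratio of genes with 50 or more CPM, at 98.2 CPM in cycling and 1.90 CPM in resting cells, 51.8-fold (43.8 to 61.7). Aspm, which focuses spindle poles, followed at 59.2 and 1.29 CPM, a ratio of 46.0 (37.5 to 57.1). Nusap1, a microtubule-binding protein, stood at 140 and 3.28 CPM, and Kif11, the motor that pushes spindle poles apart, at 106.5 and 2.53 CPM.

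Regulators of mitosis showed the same pattern. Aurkb, the kinase of the chromosomal passenger complex, stood at 76.4 CPM in cycling and 1.83 CPM in resting cells. Birc5 (survivin), a subunit of that complex, stood at 249.4 and 6.82 CPM, and Ccna2 (cyclin A2), which acts in S phase and G2, at 105 and 2.61 CPM. Knl1, a scaffold of the kinetochore, stood at 123 and 3.69 CPM. The lowest ratio of the list was that of Tubb4b, a tubulin that most cells make, at 571 and 265 CPM. Each gene named in this group other than Tubb4b was below 20 CPM in resting cells.

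Genes of G1/S and DNA replication were higher by smaller ratios. Of 47 such genes outside the rule, 46 reached 20 CPM, of which 42 were called higher and 0 lower (median log2 ratio 1.64). Over all genes compared 5.25% were called higher. Here too a gene could reach 20 CPM through the cycling cells alone, so the count describes how those cells were chosen. Pclaf, a partner of the sliding clamp, stood at 442 CPM in cycling and 22.4 CPM in resting cells, while the clamp itself, Pcna, stood at 329 and 123 CPM. The helicase subunits Mcm3 and Mcm5 had 102 CPM against 47.8 CPM and 68.1 CPM against 27.2 CPM. Mcm2, Mcm4, Mcm6 and Gins2 stayed under 2-fold, with ratios of 1.70, 1.82, 1.67 and 1.72. These 4 genes were above 20 CPM in resting cells too.

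Part of the histone, repair and cycle transcription factor genes were also higher, beside 5.25% of all genes compared. Such genes could reach 20 CPM through the cycling cells alone, so their counts also describe how those cells were chosen. Of 21 histone genes outside the rule 11 reached 20 CPM, and 8 of them were called higher (median log2 ratio 2.64). Hist1h3c stood at 45.3 CPM in cycling and 0.738 CPM in resting cells, whereas Hist1h2bc, a histone gene that also gives polyadenylated transcripts, stood at 39.4 and 73.4 CPM. Several of these genes are near-identical copies, and the assay captures polyadenylated RNA while most replication histone transcripts lack a poly(A) tail, so their levels are uncertain. Of 17 DNA repair genes at 20 CPM, 12 were called higher. Brca1 stood at 55.5 CPM in cycling and 7.94 CPM in resting cells. Of 12 cycle transcription factor genes at 20 CPM, 6 were called higher, among them Foxm1, a regulator of mitotic genes, at 27.6 and 2.04 CPM and E2f8, a repressor of the E2F family, at 60.4 and 8.49 CPM.

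**Figure D2:**
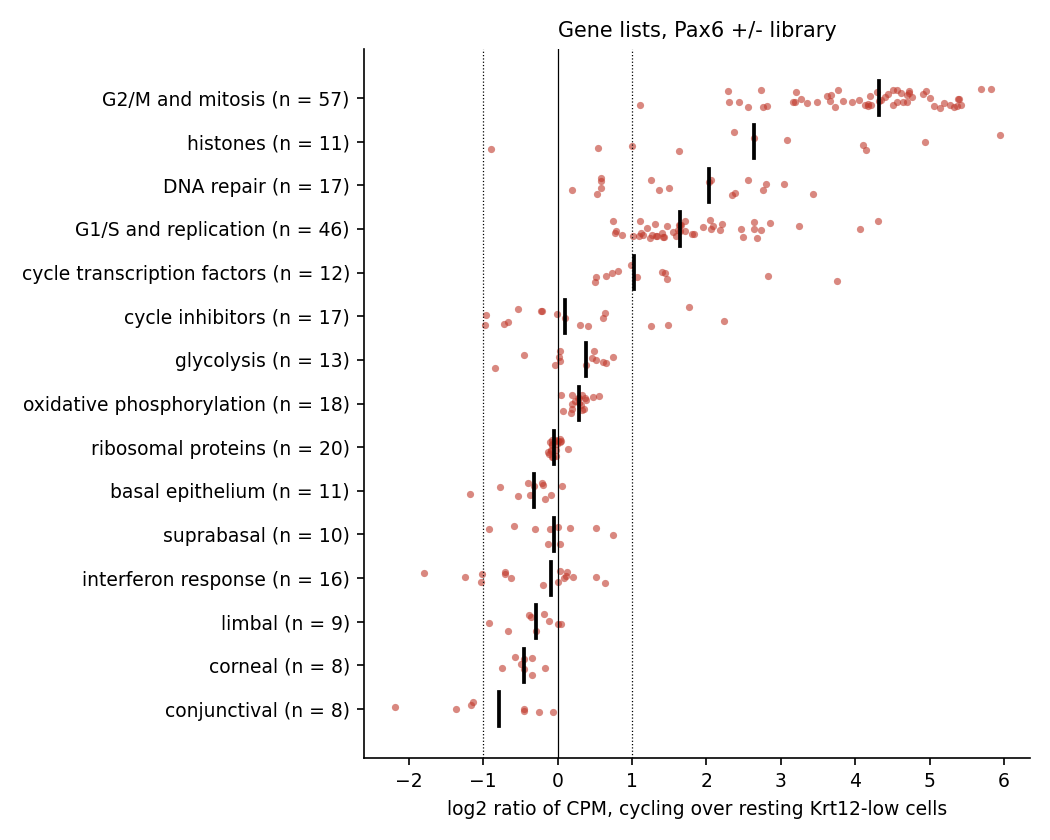
Each point is a gene of a list with at least 20 CPM in either group, outside the rule; the x axis is the log2 ratio of CPM in cycling over resting Krt12-low cells of the Pax6 +/- library, and the black bar is the list median. Dotted lines mark 2-fold; mitotic genes lie between 1 and 6 with a median of 4.32, while limbal, corneal and ribosomal genes lie near or below 0.

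The promoters of the mitotic and replication genes differed in their sequence. Promoters were taken from RefSeq (build GRCm38.p6), from 250 bases before to 50 bases after each start, and searched on both strands for the letters TTTGAA (the cell cycle homology region, CHR), for CCAAT, and for the E2F letters TTTCCCGC, TTTGGCGC, TTTCGCGC or TTTGCCGC. CHR letters were in 17.9% of all 32851 promoters, in 12.4% of those of the 7224 genes compared, of which 5792 had an entry, and in 41 of 56 promoters (73.2%) of the G2/M list, of which 53 of 64 genes had an entry. In the G1/S list 39 of 48 genes had an entry, and 12.8% of their 47 promoters held CHR letters. The E2F letters were in 2.26% of all promoters, in 4.47% of those of the genes compared, in 7.14% of those of the G2/M list and in 36.2% of those of the G1/S list. CCAAT was in 37.4% of all promoters, 36.7% of those of the genes compared, 78.6% of the G2/M list and 59.6% of the G1/S list. Among all 379 genes at least 2-fold higher in cycling cells, 304 had an entry, and 34.7% of their promoters held CHR letters, 57.9% CCAAT and 16.0% E2F letters. For the 93 lower genes, 63 with an entry, these were 12.8%, 34.6% and 2.56%. Letters in a promoter are a description and not a binding site.

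The promoters of 3 mitotic and 2 replication genes are shown 5′ to 3′ on the strand of the gene, to let the arrangement be seen. Hmmr and Aspm had the highest ratios among genes with 50 or more CPM, Ccnb2 (cyclin B2) was among the genes lowest in S-phase members, and Mcm3 and Mcm5 are replication genes with E2F letters. Capitals mark CHR (TTTGAA) and CCAAT letters on either strand (ATTGG where CCAAT lies on the other strand) in the first 3, and E2F letters on either strand in the last 2. In Mcm5 a match on each strand overlaps the other.
Hmmr, chr11:40733388-40733687, minus strand: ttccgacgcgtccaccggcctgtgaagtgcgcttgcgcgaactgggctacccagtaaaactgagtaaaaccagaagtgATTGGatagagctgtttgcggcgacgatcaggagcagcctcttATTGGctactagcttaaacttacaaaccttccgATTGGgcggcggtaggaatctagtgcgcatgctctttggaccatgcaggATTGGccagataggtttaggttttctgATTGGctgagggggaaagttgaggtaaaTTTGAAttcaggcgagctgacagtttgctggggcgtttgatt
Aspm, chr1:139454523-139454822, plus strand: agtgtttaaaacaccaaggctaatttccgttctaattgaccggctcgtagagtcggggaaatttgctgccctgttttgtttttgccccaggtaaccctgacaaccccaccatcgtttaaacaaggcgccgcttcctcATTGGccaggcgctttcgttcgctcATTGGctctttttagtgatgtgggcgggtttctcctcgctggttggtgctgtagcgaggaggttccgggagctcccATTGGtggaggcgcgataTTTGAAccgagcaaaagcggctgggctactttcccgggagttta
Ccnb2, chr9:70421505-70421804, minus strand: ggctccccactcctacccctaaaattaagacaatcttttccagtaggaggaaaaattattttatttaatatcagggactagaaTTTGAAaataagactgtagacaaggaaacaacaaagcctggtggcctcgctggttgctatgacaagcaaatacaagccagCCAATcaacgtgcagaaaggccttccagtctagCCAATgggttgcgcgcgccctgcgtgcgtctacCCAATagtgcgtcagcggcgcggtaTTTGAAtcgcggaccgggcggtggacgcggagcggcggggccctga
Mcm3, chr1:20820263-20820562, minus strand: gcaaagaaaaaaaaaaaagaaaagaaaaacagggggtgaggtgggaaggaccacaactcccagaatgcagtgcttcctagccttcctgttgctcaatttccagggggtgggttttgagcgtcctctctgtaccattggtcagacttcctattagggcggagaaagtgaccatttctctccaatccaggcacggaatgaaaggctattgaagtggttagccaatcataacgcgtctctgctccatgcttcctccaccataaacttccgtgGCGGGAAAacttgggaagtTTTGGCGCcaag
Mcm5, chr8:75109259-75109558, plus strand: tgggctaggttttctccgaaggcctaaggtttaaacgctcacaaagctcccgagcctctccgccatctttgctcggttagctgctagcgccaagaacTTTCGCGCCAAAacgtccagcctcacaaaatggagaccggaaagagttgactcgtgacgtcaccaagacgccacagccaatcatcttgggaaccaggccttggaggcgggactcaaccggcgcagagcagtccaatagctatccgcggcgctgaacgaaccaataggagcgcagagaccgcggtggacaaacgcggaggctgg
Counted with the start as 1, the CHR letters next to the start began at base 9 in Hmmr, at base 7 in Aspm and at base 5 in Ccnb2. Hmmr held 5 CCAAT matches, Aspm 3 and Ccnb2 3, all upstream of that CHR.

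Most genes of the cycle lists were higher in cycling cells, and so were many genes outside them. The cycle and repair lists, with the rule genes in them, held 149 of the 7224 genes compared, and 131 of these were called higher. Cycling cells were chosen by cycle transcripts, so this count describes that choice. Those 131 were 34.6% of the 379 higher genes. The fixed lists do not hold every gene of cell division. Outside these lists the highest named genes were Aspm, Iqgap3, a scaffold of the actin cortex (50.4 CPM in cycling, 1.18 CPM in resting cells), and Esco2, which acetylates cohesin during replication (88.1 and 2.67 CPM). Neil3, a DNA glycosylase, stood at 59.3 and 1.91 CPM, and Cep55, which acts in the last cut of cytokinesis, at 55.4 and 1.83 CPM. Kif15, Cit, Lockd, Asf1b, Mastl and Melk followed, with ratios between 25.5 for the motor gene Kif15 and 10.0 for the kinase gene Melk. Of the 379 genes, 281 (74.1%) were also at least 2-fold higher in wt cycling against wt resting epithelial cells, where they were 78.3% of the 359 genes called higher (5.48% of 6546, beside 1.92% lower). Xist cells alone gave 5.82% higher and 3.84% lower calls and Y-linked cells alone 4.85% and 0.413%, and 318 of the 379 genes were higher in both.

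The genes lower in cycling cells were fewer, and a smaller part of them was also called in other cell groups. Of the 93 genes, 0 were in the cycle lists, 23 were also called lower in wt cycling cells, and 17 were called lower within both sexes. Lower calls numbered 126 (1.92%) in wt cells, 284 (3.84%) in Xist cells and 29 (0.413%) in Y-linked cells. No more than 29 genes could thus be called lower within both sexes. Fst (follistatin, which binds activin; chromosome 13, 114452290 to 114458951, minus strand) had 24.2 CPM in cycling and 95.3 CPM in resting cells, or 0.254 of the resting level (0.229 to 0.281). It was lower in Xist cells (0.187) and in Y-linked cells (0.410) but 1.31 among the conjunctival-marker cells described below. In wt epithelial cells the Fst ratio was 1.86, at 14.5 CPM in cycling and 7.78 CPM in resting cells. Reference cells of the Pax6 +/- library held 113 CPM of Fst, above both epithelial groups. Cyp2a5, a cytochrome P450, had a ratio of 0.263, Asprv1, a skin protease, 0.285, and the interferon-induced genes Ifit1bl1 and Ifit1 0.279 and 0.289. Within the marker classes described below some were not called: Ifit1bl1 had a ratio of 0.830 in Gpha2-only cells and 0.772 in cells with neither marker, Cyp2a5 0.515 in Gpha2-only cells and Ifit1 0.571 in Krt4/Krt19-only cells. Ifit1bl1 and Cyp2a5 were low in Gpha2-only members, at 0.0254 and 0.00424 of their levels in Krt4/Krt19-only members. Their Gpha2-only ratios therefore do not tell whether the decrease was absent there. The membrane mucin gene Muc4 stood at 105 CPM in cycling and 270 CPM in resting cells, and Fmo2, a flavin monooxygenase, at 226 and 573 CPM. Prss27, Rgcc, Gsto2, Egr3 and Nccrp1 had ratios from 0.319 to 0.375, and in the Y-linked cells Egr3, Fmo2, Gsto2 and Muc4 were less than 2-fold lower. Rgcc and Egr3 had ratios of 1.47 and 1.43 in wt epithelial cells, where they were below 20 CPM. Pax6 +/- reference cells held 169 CPM of Rgcc and 165 CPM of Egr3, above both Krt12-low groups.

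Some cell cycle inhibitors were higher in cycling cells. Of 17 inhibitor genes at 20 CPM, 4 were called higher and 0 lower (median log2 ratio 0.10). In Xist cells alone 4 of 17 were called higher and 3 lower, and in Y-linked cells 3 of 16 higher and 0 lower. Within the Gpha2-only class described below 4 of 17 were called higher and 2 lower. Cdkn2c (p18), an inhibitor of Cdk4 and Cdk6, stood at 62.5 CPM in cycling and 18.4 CPM in resting cells, Cdkn2d (p19) at 71.1 and 25.5 CPM, the Rb relative Rbl1 at 63.1 and 26.4 CPM, and Pkmyt1, which restrains Cdk1, at 28.3 and 6.02 CPM. Neither Cdkn1a (p21), the p53 target that holds cells in G1, nor Tob1, an antiproliferative gene, was called: they had 210 CPM against 410 CPM and 35.2 CPM against 69.3 CPM. Among 17 growth factor, receptor and cyclin D genes, 1 was called higher and 1 lower. Cdk2, the kinase of cyclin E and cyclin A, stood at 51.9 and 22.8 CPM, and Areg, an EGF receptor ligand, at 61.8 and 127 CPM, while Ccnd1 (cyclin D1) stood at 1196 and 896 CPM.

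More of the members were past the S-phase sum alone than past the mitotic sum alone. The S-phase sum alone reached 5 UMIs in 339 members, or 48.4% (44.6 to 52.1), the mitotic sum alone in 139, or 19.8% (16.9 to 23.0), and both in 223, or 31.8%. Among the 895 wt cycling epithelial cells the shares were 11.3% (9.29 to 13.5), 61.0% (57.7 to 64.2) and 27.7%. Among the 27 wt cycling cells below the Krt12 limit 2 were past the S-phase sum alone, and among the 71 Pax6 +/- cycling cells above it 69.0% were. With cells thinned to 5000 UMIs and sums of at least 3, the S-phase-only share was 50.4% in Pax6 +/- Krt12-low cells and 12.3% in wt epithelial cells. Phase mixes thus differed between the libraries by far more than the counting intervals, in 1 library each.

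The make-up of the S-phase sum bears on these shares. Rrm2 gave 44.9% of its UMIs in members and 19.99% in wt cycling cells, Hist1h1b 48.0% and 61.3%, and Hist1h2ap 7.12% and 18.7%. With Rrm2 alone as the S-phase sum, 44.3% of Pax6 +/- and 7.13% of wt cycling cells were past it only; with the 2 histones alone these were 23.3% and 4.80%. The direction was the same each way, but the size of the gap was not. Sex moved with it too: the S-phase-only share was 39.5% (34.7 to 44.4) of the 408 Xist members and 63.6% (56.9 to 69.9) of the 225 members with Y-linked UMIs. The part of sex, animal or tissue handling in the difference from wt was not tested.

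**Figure D3:**
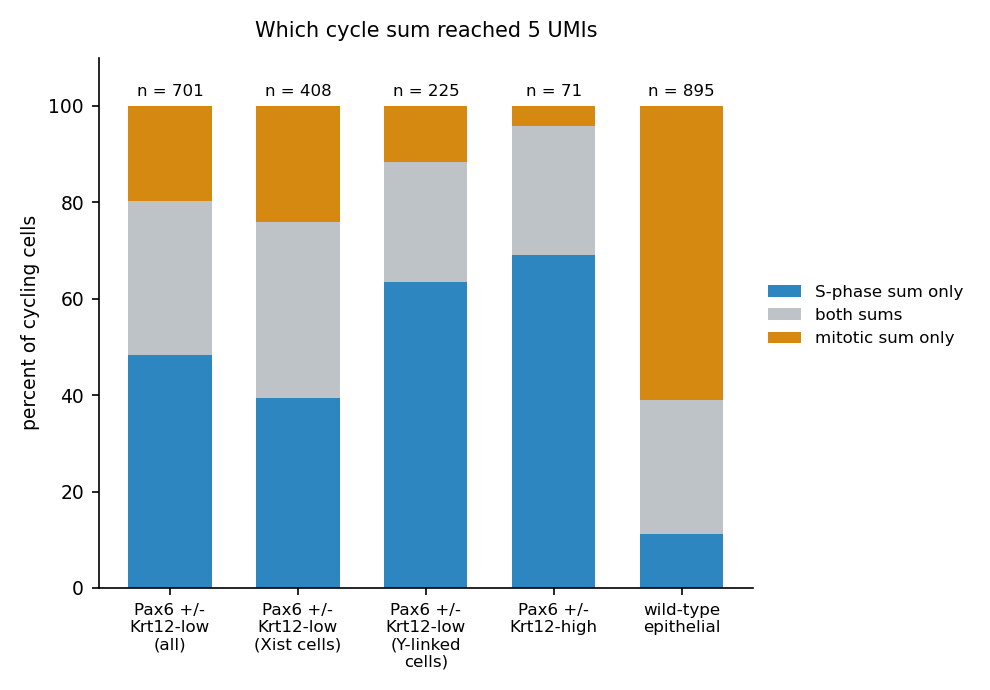
Stacked bars give the percent of cycling cells in which the S-phase sum only, both sums or the mitotic sum only reached 5 UMIs; the number of cells stands above each bar. In all 3 bars of Pax6 +/- Krt12-low cells the S-phase-only part (39.5% to 63.6%) is larger than the 11.3% of wt epithelial cells.

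The remaining cycle genes also differed between S-phase and mitotic members. Those members were split by S-phase and mitotic transcripts, so the calls for cycle genes describe that split. Either group alone could bring a gene to 20 CPM. Between the 339 S-phase and the 139 mitotic members, 250 of 7347 genes (3.4%) were called higher and 174 (2.37%) lower in S-phase members. Of 45 G1/S genes outside the rule at 20 CPM, 43 were called higher, and of 58 G2/M genes 37 were called lower and 0 higher. The cyclin E genes Ccne1 and Ccne2, which open S phase, had 50.2 and 79.5 CPM in S-phase members, against 1.84 and 4.04 CPM in mitotic members. E2f1 stood at 59.0 and 3.68 CPM, Tcf19 at 82.9 and 5.15 CPM, the uracil glycosylase gene Ung at 79.8 and 5.88 CPM, and Mcm3 at 150 and 15.8 CPM. Cenpa, the centromeric histone, stood at 21.6 CPM in S-phase and 469 CPM in mitotic members, Ccnb2 at 24.1 and 286 CPM, and Cdkn3, a phosphatase that acts on Cdk1 and Cdk2, at 2.69 and 64.3 CPM. Gas2l3, Aspm and Pimreg had ratios of 0.0683, 0.0833 and 0.0905. The promoters of the 174 genes higher in mitotic members held CHR and CCAAT letters together in 35.9%, against 6.95% of all promoters. Those of the 250 genes higher in S-phase members held E2F letters in 22.1%.

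No limbal marker was 2-fold apart between all cycling and all resting cells. Of 9 limbal genes at 20 CPM outside the rule, 0 were called in either direction, and their median log2 ratio was -0.28. In Xist cells alone 2 of 9 were called lower, and in Y-linked cells 0 of 9. Gpha2, on the plus strand of chromosome 19 from 6226380 to 6227768, had 337 CPM in cycling and 364 CPM in resting cells, 0.924 of the resting level (0.898 to 0.951). Its order depended on depth: against resting cells at or above the lower quartile of cycling-cell depth the ratio was 1.40, and it was 1.09 in Xist cells and 0.730 in Y-linked cells. Per cell its median was 1.81 per 10000 UMIs in cycling and 1.26 in resting cells, and 4.32 CPM was found in reference cells. The membrane proteins Ifitm3 and Cd63 had 1203 CPM in each group and 224 CPM against 273 CPM, but both were higher in reference cells, at 1477 and 764 CPM. Trp63 (p63), the master regulator of stratified epithelium, stood at 311 and 302 CPM, and at 5.98 CPM in reference cells. Of the keratins used by the rule, Krt14 stood at 6174 CPM in cycling and 4771 CPM in resting cells, Krt5 at 4121 and 4211 CPM, and Krt15 at 7895 and 12109 CPM. Abcb5, a transporter of human limbal stem cells, had 0 UMIs in members, which allows up to 0.183 CPM, and 0.102 CPM in resting cells.

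Part of the conjunctival markers were lower in cycling cells. Of 8 conjunctival genes at 20 CPM, 4 were called lower and 0 higher; their median log2 ratio was -0.79, beside 0.03 over all genes. These calls depended on the cells used: 4 of 9 were called lower in Xist cells and 0 of 7 in Y-linked cells. Among the marker classes described below, 3 of 8 were called lower in Krt4/Krt19-only cells and 1 of 7 in cells with neither marker. In Gpha2-only cells only 3 reached 20 CPM, of which 0 were called lower and 1 higher. Krt19 (chromosome 11, 100140810 to 100148665, minus strand) stood at 184 CPM in cycling and 404 CPM in resting cells, Krt8 at 17.5 and 39.2 CPM, and Psca, a membrane antigen of mucosal surfaces, at 6.23 and 28.4 CPM. The ratio of Krt19 was 0.456 in all cells, 0.289 in Xist and 0.639 in Y-linked cells, 0.182 without the deepest 5% of epithelial cells and 0.0516 without cells with 3 or more UMIs of other lineages, which left 1227 of the 6316 Krt12-low cells. Krt4 (chromosome 15, 101918535 to 101924735, minus strand) had 733 CPM against 1000.2 CPM, Krt13, a mucosal keratin, 1201 CPM against 1636 CPM, and Krt7, a simple-epithelial keratin, 213 CPM against 253 CPM. In reference cells Krt4, Krt7 and Krt19 held 9.30, 7.09 and 4.43 CPM. Muc5ac, the secreted mucin of goblet cells, had 0 UMIs in members and 0.980 CPM in resting cells, where only 0.0356% of cells held it. With so few cells, 0 UMIs in members does not tell whether the groups differed.

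Gpha2 and Krt4 were found together in part of the members. Thinned to 5000 UMIs, 28.3% (24.9 to 31.8) of members and 18.9% (17.8 to 20.01) of resting cells had both Gpha2 and Krt4. With or without the other, Gpha2 was found in 57.6% of members and 53.1% of resting cells, and Krt4 in 57.6% and 53.2%. In both groups they were found together less often than the product of these separate shares. Gpha2 without Krt4 was found in 29.3% and 34.3%, Krt4 without Gpha2 in 29.3% and 34.4%, and no UMI of either in 13.1% and 12.5%. Of 849 reference cells at that depth, 0 had both (which allows up to 0.353%), 2.12% Gpha2 alone and 4.36% Krt4 alone. Members were also deeper and had higher doublet scores than resting cells; the part of doublets in the cells with both transcripts was not tested.

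To set the cycling share against these markers, Krt12-low cells were split by Gpha2 at 2 or more and by Krt4 plus Krt19 at 10 or more per 10000 UMIs. The members fell into 306 with Gpha2 only (43.7%), 105 with Krt4/Krt19 only (15.0%), 22 with both (3.14%) and 268 with neither (38.2%), against 42.2%, 21.5%, 1.60% and 34.7% of resting cells. The cycling share was 11.4% (10.3 to 12.7) of Gpha2-only cells, 8.003% (6.59 to 9.61) of Krt4/Krt19-only cells, 19.6% (12.7 to 28.2) of cells with both and 12.1% (10.8 to 13.5) of cells with neither. Thinned to 5000 UMIs with sums of at least 3, these shares were 9.57%, 4.02%, 7.29% and 11.2%. The class with both markers was thus above the other classes before thinning and below 2 of them after it, and its members were very deep, at a median of 51394 UMIs against 20167 UMIs of Gpha2-only members.

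The classes are ranges of a score and not cell types. Gpha2 lay between 1 and 3 per 10000 UMIs in 154 members and Krt4 plus Krt19 between 5 and 15 in 119. Among Xist cells 15.8% (13.8 to 17.9) of Gpha2-only and 8.47% (6.53 to 10.8) of Krt4/Krt19-only cells were cycling, and among Y-linked cells 8.30% (6.72 to 10.1) and 7.76% (5.40 to 10.7). The gap between the classes was therefore present among Xist cells, and among Y-linked cells the intervals overlapped. S-phase-only members made up 47.7% of Gpha2-only, 52.4% of Krt4/Krt19-only and 47.8% of neither-class members, so the phase mix was close across these 3 classes.

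**Figure D4:**
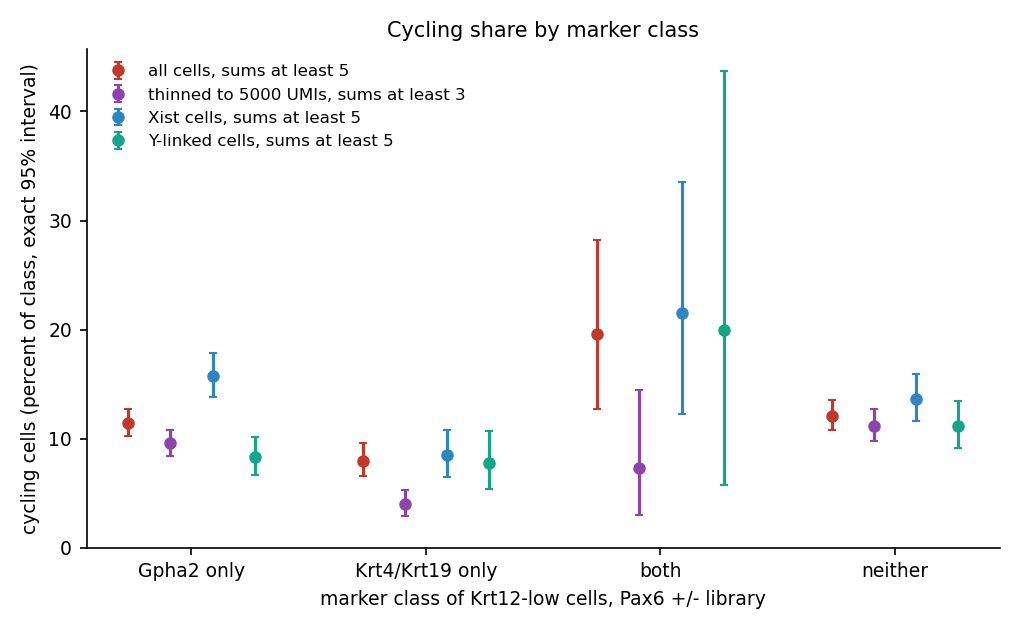
The y axis gives the percent of Krt12-low cells of each marker class that passed the cycle rule, with exact 95% intervals, for all cells, for cells thinned to 5000 UMIs, for Xist cells and for Y-linked cells of the Pax6 +/- library. Krt4/Krt19-only cells have the lowest thinned share (4.02%), and the class with both markers has the widest intervals because it holds 112 cells.

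The ratios were also taken within each class. Gpha2-only cells gave 6.31% higher and 2.6% lower calls, Krt4/Krt19-only cells 5.6% and 1.68%, and cells with neither 5.52% and 1.01%. In Gpha2-only cells the ratio of cycling over resting CPM was 1.74 for Krt4 and 4.47 for Krt13, and of 9 suprabasal genes 2 were called higher and 1 lower, Sprr1a among the higher, a cornified envelope gene, with a ratio of 7.25. Prss27 and Nccrp1, which were lower over all cells, had ratios of 2.44 and 3.58 there. Their levels in Gpha2-only members were only 0.0256 and 0.0433 of those in Krt4/Krt19-only members, so these ratios rest on low levels. All 8 conjunctival genes at 20 CPM, Krt4 and Krt13 among them, were also called lower in Gpha2-only than in Krt4/Krt19-only members. The same held for 8 of 11 suprabasal genes. Of 3 conjunctival genes at 20 CPM in Gpha2-only cells, 1 was called higher. Of 9 limbal genes, 1 was called higher in Krt4/Krt19-only cells and 1 lower in Gpha2-only cells. In Krt4/Krt19-only cells the ratio was 2.84 for Gpha2, 1.74 for Krt14 and 0.45 for Muc4. Gpha2, Krt4 and Krt19 also formed the classes, so their values within them are a description of that split.

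**Figure D5:**
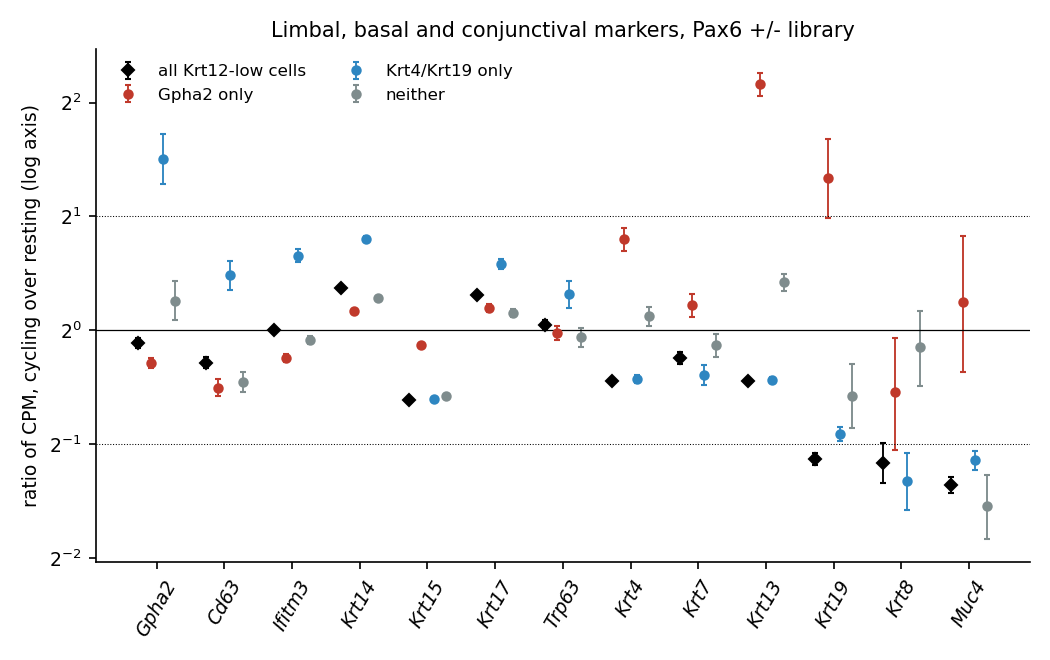
The y axis is the ratio of CPM in cycling over resting cells (log axis) with exact 95% intervals, for all Krt12-low cells of the Pax6 +/- library and within 3 marker classes; dotted lines mark 2-fold. Gpha2, Ifitm3 and Trp63 lie near 1 over all cells, while Krt19, Krt8 and Muc4 lie below 0.5. Krt13 is 4.47 within the Gpha2-only class, where its level in members was below that in Krt4/Krt19-only members.

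Gpha2-only and Krt4/Krt19-only members also differed from each other in cycle transcripts. Of 7416 genes 723 (9.75%) were called higher and 488 (6.58%) lower in Gpha2-only members, and of 59 G2/M genes outside the rule 41 were called higher. Of 46 G1/S genes 4 were called higher. Mki67 stood at 419 CPM in Gpha2-only and 159 CPM in Krt4/Krt19-only members. A fixed limit of 5 UMIs admits cells with lower relative levels where depth is higher, and the Krt4/Krt19-only members had a median of 30463 UMIs; the part of depth in this difference was not tested.

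Few differentiation and wound genes were 2-fold apart between cycling and resting cells. Of 8 corneal differentiation genes at 20 CPM 0 were 2-fold apart (median log2 ratio -0.45), with Pax6 itself at 606 CPM in cycling and 769 CPM in resting cells and Aldh3a1, the corneal crystallin, at 1449 and 1845 CPM. Of 5 wound keratin genes 1 was called lower, Krt6b at 306 and 649 CPM, while Krt17 stood at 1505 and 1218 CPM. Of 10 suprabasal genes 0 were 2-fold apart.

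No metabolic gene of the lists was 2-fold apart between all cycling and all resting cells. Of 13 glycolysis and 18 genes of oxidative phosphorylation 0 were 2-fold apart, with median log2 ratios of 0.39 and 0.29 beside 0.03 over all genes. In Xist cells alone 1 of 13 glycolysis genes was called lower, and in Y-linked cells 0 of 13. Within Gpha2-only cells 1 of 13 glycolysis genes was called lower and 1 of 18 genes of oxidative phosphorylation higher. Gapdh stood at 931 CPM in cycling and 654 CPM in resting cells, Pgam1 at 314 and 187 CPM, and Hk2, which starts glycolysis, at 97.9 and 175 CPM. None of 20 ribosomal protein genes was 2-fold apart either (median log2 ratio -0.04).

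Immediate early and interferon genes were lower in part. Of 12 immediate early genes, which tissue digestion can raise, 1 was called lower, Fosb at 421 CPM in cycling and 857 CPM in resting cells, and the list median was -0.51. This differed by sex: 5 of 12 were called lower in Xist cells (median -0.95) and 0 of 12 in Y-linked cells (median -0.17). Of 16 interferon and MHC genes 4 were called lower: Ifit1, Ifit3, Gbp2 and Gbp2b. The MHC genes B2m and H2-K1 had 1072 CPM against 926 CPM and 1002 CPM against 703 CPM. Reference cells held 189 CPM of Ifit1, 193 CPM of Gbp2 and 1981 CPM of Fosb, above both epithelial groups.

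Transcripts of other cell types were also summed over their marker lists. The 5 endothelial markers summed to 10.7 CPM in cycling, 15.0 CPM in resting and 2180 CPM in reference cells, and the 6 immune markers to 3.66, 16.0 and 1247 CPM. The 4 mural markers summed to 61.0, 59.1 and 6122 CPM and the 5 Schwann markers to 122, 154 and 848 CPM. Of 4 melanocyte markers Dct and Tyrp1 were at 0 in members, and the 2 neutrophil markers summed to 21.0 CPM in cycling, 25.8 CPM in resting and 0.996 CPM in reference cells. The 6 keratocyte genes of the corneal stroma summed to 365 CPM in cycling, 577 CPM in resting and 2055 CPM in reference cells. Of members 55.5% held 3 or more keratocyte UMIs and 45.5% 3 or more Schwann UMIs, against 48.7% and 32.3% of the shallower resting cells; their part in the results was not tested. Of the 1252 reference cells, 11 (0.879%) passed the cycle rule.

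Set against wt cycling epithelial cells, which keep Krt12, the members differed widely in identity genes. Of 7368 genes, members gave 924 higher calls (12.5%) and 521 lower calls (7.07%). With edgeR or DESeq2 factors all log2 ratios fell by 0.21 and the split was 672 higher with 729 lower by edgeR, or 672 with 725 by DESeq2. Given as UMIs, out of 16377474 UMIs in members and 16941395 UMIs in wt cells, the highest named genes were Stra6, the receptor for retinol-binding protein (1033 UMIs in members, 1 UMI in wt cells), Sprr2f (971 and 1 UMI), Igfbp3 (2204 and 5), Krt7 (3489 and 9), Cpa6 (982 and 3) and Dapk2 (2245 and 7). The lowest were Slurp1, a secreted protein of differentiated cornea (4 UMIs in members, 35389 UMIs in wt cells), Sphkap (2 and 1680), Lypd2 (71 and 54408), Fam169a (22 and 5027), Pygl (9 and 1631) and Ppp1r3c (6 and 855). Slurp1 held 119 CPM in wt reference cells, and Igfbp3 held 236 CPM in Pax6 +/- reference cells. Within the Pax6 +/- library, the highest named genes had cycling over resting ratios from 0.843 (Krt7) to 2.12 (Sprr2f). Resting Krt12-low cells thus also held these genes. Of 12 corneal differentiation genes 9 were called lower in members, and of 8 conjunctival genes 5 were called higher and 2 lower, with the same counts under either factor. Of 10 limbal genes 3 were called higher and 4 lower, or 3 higher and 5 lower under either factor. Of 15 interferon and MHC genes 12 were called higher, also under either factor. Fewer cells of a type and less RNA per cell cannot be told apart in such sums.

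The G1/S genes called between genotypes differed with the phase of the cells compared. Of 46 G1/S genes outside the rule, 25 were called higher in members than in wt cycling cells (19 with either factor) and 0 lower. Between S-phase-only cells, 339 Pax6 +/- and 101 wt, 1 of 45 was called higher and 0 lower, beside 868 of 7271 genes (11.9%) higher and 464 (6.38%) lower in all. Pcna stood at 442 CPM in Pax6 +/- and 424 CPM in wt S-phase cells, Ccne2 at 79.5 and 68.9 CPM, and Ung, the G1/S gene past 2-fold, at 79.8 and 19.4 CPM. Between mitotic-only cells, 139 Pax6 +/- and 546 wt, 5 of 23 G1/S genes and 5 of 59 G2/M genes were called higher and 0 of either list lower, beside 990 of 7346 genes (13.5%) higher and 551 (7.5%) lower. Hmmr stood at 217 CPM in Pax6 +/- and 162 CPM in wt mitotic cells, and Cenpa at 469 and 311 CPM.

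Some differences remained within a phase. Of 14 histone genes 8 were called lower in members than in wt cycling cells, and 4 of 12 between S-phase-only cells. Hist1h1e, a linker histone, stood just short of 2-fold there, at 72.0 CPM in Pax6 +/- and 143 CPM in wt cells. Ccnd2 (cyclin D2) had 831 CPM in Pax6 +/- against 238 CPM in wt S-phase cells, and 704 CPM against 114 CPM in mitotic cells. Cdkn1a had 248 CPM against 474 CPM in S-phase cells and 139 CPM against 693 CPM in mitotic cells. Genotype, sex, library and the mix of limbal, conjunctival and corneal cells differ together here and cannot be told apart.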

How the data were processed

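Single-cell transcriptomes of mouse cornea and limbus were analysed, 1 library labelled Pax6 +/- and 1 wt library. The deposited values are raw UMI counts per gene and barcode, made by the authors with Cell Ranger 8.0.0 per the file headers; the submitters' processing notes name the GRCm38 build. No barcode held fewer than 500 UMIs; how barcodes were picked upstream is not given in the sources used here. Cells were filtered and grouped as the report states; the members and gene lists were chosen with earlier results of these data known. UMIs were summed per group without mitochondrial genes. Ratios carry exact conditional binomial intervals and shares Clopper-Pearson intervals, at 95%, for counting error only. Genes with at least 20 CPM in either group were counted at 2-fold by size; a count of 0 was set to 3 UMIs. Named genes had at least 50 CPM in either group and were the 12 highest, the 12 highest outside the cycle lists and the 12 lowest, or the 6 highest and 6 lowest for the other comparisons; mitochondrial genes, the 11 genes of the rule and Gm or Rik names were left out. Members of the fixed lists were named besides. A few genes that these rules name are not reported here. Scaling alternatives used edgeR 4.0.16 (TMM) and DESeq2 1.42.0 size factors in R 4.3.3; other steps used Python 3.11.15, numpy 2.4.6, scipy 1.17.1 and scanpy 1.11.5. The ratio and call step was tested on simulated data. Comparisons within marker classes and within phases were chosen after seeing the data.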

Additional observations from a re-analysis of the deposited data

How the results depend on the processing

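No paired analysis was possible because there is 1 library per genotype and no replicate number. Across 12 summary results, 58 of 94 alternative values stayed within 1.5 times the main count or within the main interval, and 36 did not. The balance of Pax6 +/- against wt cycling calls turned: higher genes were 63.9% of the calls, but 48.0% with edgeR and 48.1% with DESeq2 factors. The 93 genes lower in cycling cells became 148 at a floor of 10 CPM, 53 at 50 CPM, 1669 with no floor, 489 at 1.5-fold, 198 with resting cells limited to the deeper ones, 389 without cells holding 3 or more UMIs of other lineages, 284 in Xist cells, 29 in Y-linked cells, 61 with sums of at least 3 and 190 within Gpha2-only cells. The 379 higher genes became 209 at 50 CPM, 1878 with no floor, 774 at 1.5-fold and 583 without other-lineage cells. The S-phase against mitotic counts became 138 and 105 at 50 CPM. The cycling share of 11.1% became 15.0% with sums of at least 3, 8.28% with at least 8, 8.90% and 5.70% thinned with sums of at least 3 and 5, 10.1% without the deepest 5%, 5.54% without other-lineage cells (1227 of 6316 cells left), 13.5% in Xist and 9.36% in Y-linked cells. By class, the Gpha2-only share became 9.82% and the Krt4/Krt19-only share 5.57% at stricter marker limits (5 and 20 per 10000); thinning gave 9.57%, 4.02% and 7.29% for the Gpha2-only, Krt4/Krt19-only and both classes; Xist cells gave 15.8% for Gpha2-only and 13.6% for neither, and Y-linked cells 8.30% for Gpha2-only. The S-phase-only share of 48.4% became 39.5% in Xist cells, 63.6% in Y-linked cells, 44.3% with Rrm2 alone and 23.3% with the histones alone. The cause of these shifts was not tested. Of 48 named or marker genes, 38 were past 2-fold; 38 of them stayed so under either scaling, 37 with deeper resting cells (Fmo2 did not) and 33 in Y-linked cells. Within Gpha2-only cells the ratios of Krt19 (2.53), Muc4 (1.19), Nccrp1 (3.58) and Prss27 (2.44) turned above 1, as did Fst (1.31) within Krt4/Krt19-only cells. Muc4, Nccrp1 and Prss27 were low in Gpha2-only members, at 0.0132, 0.0433 and 0.0256 of their levels in Krt4/Krt19-only members. Depth limits every share that rests on 5 UMIs.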
